A study of Mus musculus with 8 samples.

Results

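A set of 9 genes of the interferon regulatory factor (IRF) and STAT families was followed in mouse Lewis lung carcinoma (LLC) cells, a lung tumor line, with and without the oxygen-dependent hydroxylase factor-inhibiting HIF (FIH, gene Hif1an). The genes were Irf1, Irf2, Irf3, Irf5, Irf7, Irf8, Irf9, Stat2 and Stat3, taken by name from the gene column of the count table, and they made up 9 of its 53700 genes. All 9 passed the filter on low counts, as did 13933 genes in total. The 4 groups were wild-type (WT) LLC cells in normoxia (21% O2), WT cells in hypoxia (1% O2), FIH-deficient (FIH-KO) cells in normoxia and FIH-KO cells in hypoxia. Each group had 2 libraries, 8 in all. FIH-KO cells were made with a Cas9 ribonucleoprotein and a guide to Hif1an followed by single-cell dilution, so that genotype and clone cannot be told apart. Cells had been held at either oxygen level for less than 1 day, in growth medium with serum and antibiotics, and the labels list no treatment. The labels do not say that the libraries of a group came from separate cultures, and p-values measure only the spread between these libraries.

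IRF proteins share a helix-turn-helix DNA-binding domain that recognizes the interferon-stimulated response element (ISRE), a sequence with repeated GAAA. STAT proteins wait in the cytoplasm until a Janus kinase (JAK) on a cytokine receptor phosphorylates them, whereupon they pair, enter the nucleus and bind the gamma-activated site (GAS). Type I interferons act through the ISGF3 complex on ISREs, in which STAT2 and IRF9 take part, whereas interferon-gamma induces IRF1. Several of these factors act mainly after phosphorylation, which RNA levels do not show.

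The depth was 14519731 to 18177016 counts per library. Hif1an was lower in FIH-KO than in WT cells in normoxia (by -1.20 on the log2 scale, with a standard error of 0.12, as given after ± from here on, adjusted p = 3.1e-05) and in hypoxia (-0.85 ± 0.12, adjusted p = 3.1e-04, edgeR's quasi-likelihood test with Benjamini-Hochberg adjustment over all genes tested). Of 8 HIF target genes, all 8 rose with hypoxia in WT cells and 7 in FIH-KO cells. Among markers of lung epithelium, Epcam, Nkx2-1 and Sftpc had no read in any library, whereas the carcinoma keratin Krt8 had 1521 to 5579 reads. Of 12 leukocyte markers, 4 passed the filter. These had 41 to 115 reads per library for Cd68, 2 to 107 for Lyz2, 1 to 66 for Flt3 and 0 to 53 for Csf1r. Adgre1 and Cd3e had no read in any library, Ptprc had 0 to 3 and Spi1 0 to 1. In RNA from whole cultures, fewer cells that express a gene and less RNA per cell cannot be told apart.

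The promoter windows of the 9 genes were read from RefSeq (table built on GRCm38.p6), as 250 bases before to 50 bases after each annotated start, and were placed on GRCm39 by exact match. All 9 genes had at least 1 window, and 12 windows were found. The letters searched on both strands were the ISRE core GAAANNGAA, the GAS TTCNNNGAA and the hypoxia response cores ACGTG and GCGTG. No match in the windows of the 9 genes overlapped another. The 4 stretches below are shown because their genes, Irf1, Irf2, Irf8 and Stat2, differed between FIH-KO and WT cells in both oxygen conditions and carry the ISRE core or GAS upstream of the start. Capitals mark the matches, and each line runs 5′ to 3′ on the plus strand, which is the strand of the gene.
Irf1: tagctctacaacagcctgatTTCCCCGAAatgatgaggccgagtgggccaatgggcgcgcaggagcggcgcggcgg
Irf2: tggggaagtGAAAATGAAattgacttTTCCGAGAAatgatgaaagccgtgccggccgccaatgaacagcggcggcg
Irf8: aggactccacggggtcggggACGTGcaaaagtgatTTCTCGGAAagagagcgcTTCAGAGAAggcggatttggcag
Stat2: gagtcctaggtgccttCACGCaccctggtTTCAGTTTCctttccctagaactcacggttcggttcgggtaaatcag

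The Irf1 stretch (chr11:53660731-53660806 on GRCm39) ran from position -110 to -35 relative to the RefSeq start and held 1 GAS. That of Irf2 (chr8:47192530-47192605) ran from -250 to -175 and held an ISRE core and a GAS close together, within the first intron of a longer Irf2 transcript and over the first exon of the antisense RNA Gm16675. That of Irf8 (chr8:121462891-121462966), from -206 to -131, held 2 GAS and 1 hypoxia response core. That of Stat2 (chr10:128106117-128106192), from -250 to -175, held an ISRE core on the opposite strand beside a hypoxia response core. An ISRE core was found in windows of 2 of the 9 genes and a GAS in windows of 3. Over all 32851 windows in the table, 8.56% held an ISRE core, 8.30% a GAS and 43.8% a hypoxia response core, the last of which was found for 5 of the 9 genes. The windows of Irf5, Irf7 and Irf9 held none of these letters, which describes the windows alone.

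Irf2, Irf3, Irf1 and Stat3 were the more abundant of the 9 genes, Stat2 and Irf9 were intermediate, and Irf5, Irf7 and Irf8 were low. Levels between genes were compared as CPM (counts in 1000000 reads of the library, after TMM scaling) per kilobase of the canonical transcript. In WT normoxia the mean level per kilobase was 14.5 for Stat3, 13.8 for Irf2, 12.6 for Irf3 and 9.44 for Irf1. The libraries of Irf2 and Irf3 overlapped, whereas those of Stat3 and Irf2 and those of Irf3 and Irf1 did not. Stat2 followed at 3.33 and Irf9 at 2.70, and then came Irf5 at 0.444, Irf8 at 0.242 and Irf7 at 0.0751, each clear of the next in both libraries. The order at the low end rests on few reads, with 32 for Irf5, 40 for Irf8 and 6 for Irf7 over both WT normoxia libraries.
The order changed with genotype at the low end. In FIH-KO normoxia Irf7, at 0.888 CPM per kilobase, overlapped Irf5, at 0.928, and Irf8 was last at 0.0734. Irf2, at 20.2, overlapped Stat3, at 19.7, in the same group. In WT hypoxia Irf9, at 4.41, stood above Stat2, at 3.49, without overlap, which was the reverse of their order in the other 3 groups.

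**Figure D1:**
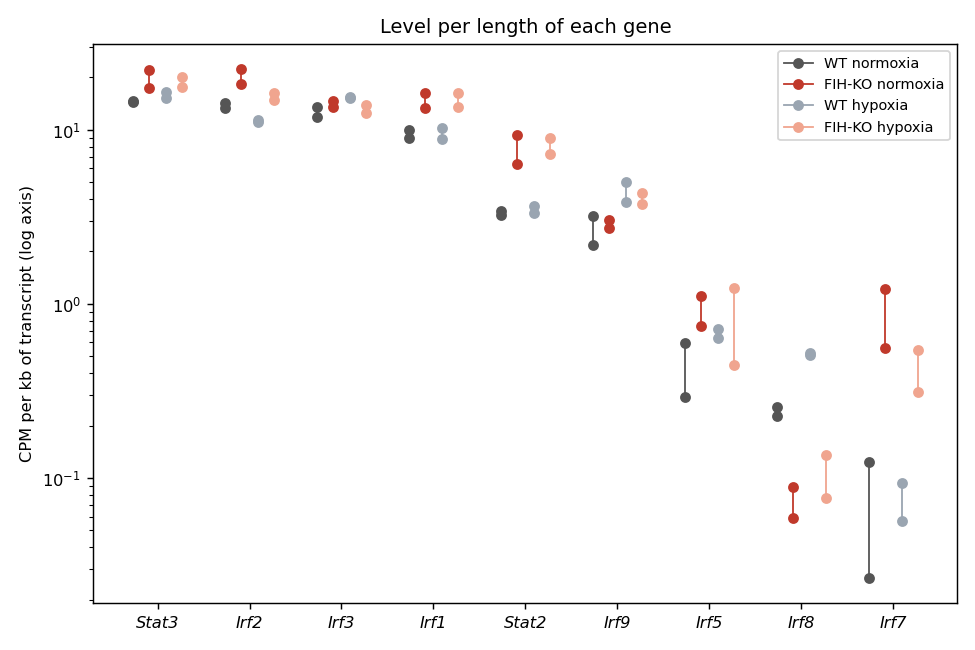
Level of each of the 9 genes in CPM per kilobase of transcript on a log axis, with the genes ordered by their mean in WT normoxia; each point is a library, and a line joins the 2 libraries of a group. Irf7 and Irf8 exchange places between WT and FIH-KO cells, with Irf7 at 0.0751 and Irf8 at 0.242 in WT normoxia and at 0.888 and 0.0734 in FIH-KO normoxia. Their places rest on few reads.

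FIH-KO was compared with WT within each oxygen condition to ask which transcripts differ without FIH. In normoxia, 5 of the 9 genes were higher in FIH-KO cells (Irf1, Irf2, Irf7, Stat2 and Stat3), 1 was lower (Irf8) and 3 did not pass the test (Irf3, Irf5 and Irf9). The background over all genes tested was 28.2% called, with 15.2% higher and 13.0% lower. In hypoxia, 4 were higher (Irf1, Irf2, Irf7 and Stat2), Irf8 was again lower, and 4 did not pass, beside 28.0% of all genes called, 14.1% higher and 13.9% lower. A gene was called at an adjusted p under 0.05. Irf7 passed the filter on low counts only through FIH-KO libraries and Irf8 only through WT libraries. The counts and medians here include both genes, and neither was tested where at least 10 counts in every library were required. Whether the libraries of the compared groups overlapped is given below as a description only. Irf3 did not overlap between genotypes in either condition and was not called. The share of all genes without overlap was not counted. The median log2 fold change of the 9 genes was 0.55 in normoxia and 0.31 in hypoxia, against -0.003 and -0.032 over all genes tested. Called in both comparisons were 5 genes (Irf1, Irf2, Irf7, Irf8 and Stat2), each in the same direction. The share of all genes called in both was not counted. The comparisons use different libraries but 1 model with a shared estimate of the spread, and a difference between clones could recur in both.

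**Figure D2:**
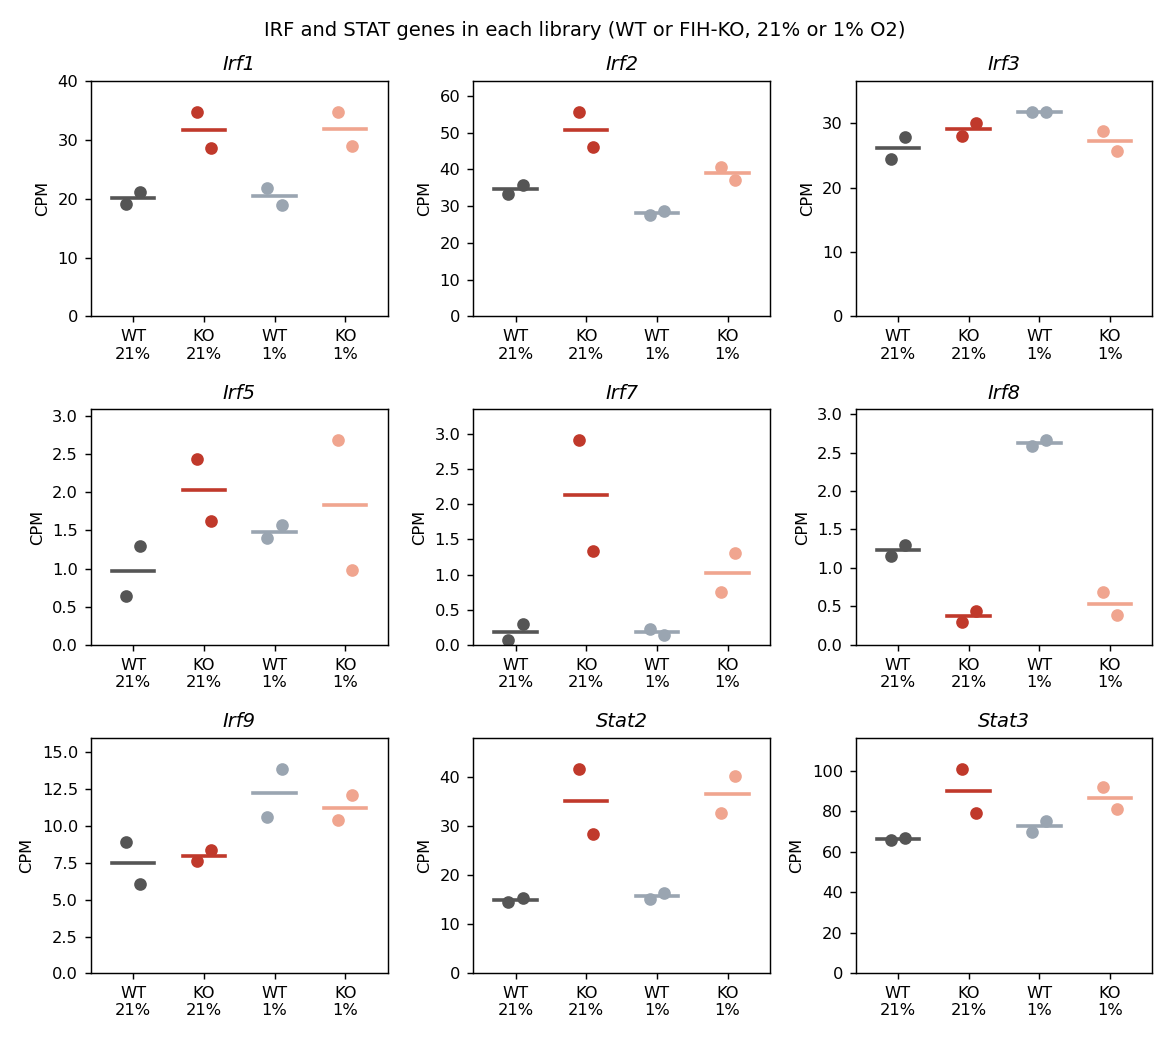
CPM of each of the 9 genes in the 8 libraries, by genotype (WT or KO for FIH-KO) and oxygen (21% or 1%); points are libraries, bars are group means, and each panel has its own axis from 0. Stat2 lies between 14.6 and 16.4 CPM in the 4 WT libraries and between 28.5 and 41.8 in the 4 FIH-KO libraries, and Irf8 shows the opposite order.

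**Figure D3:**
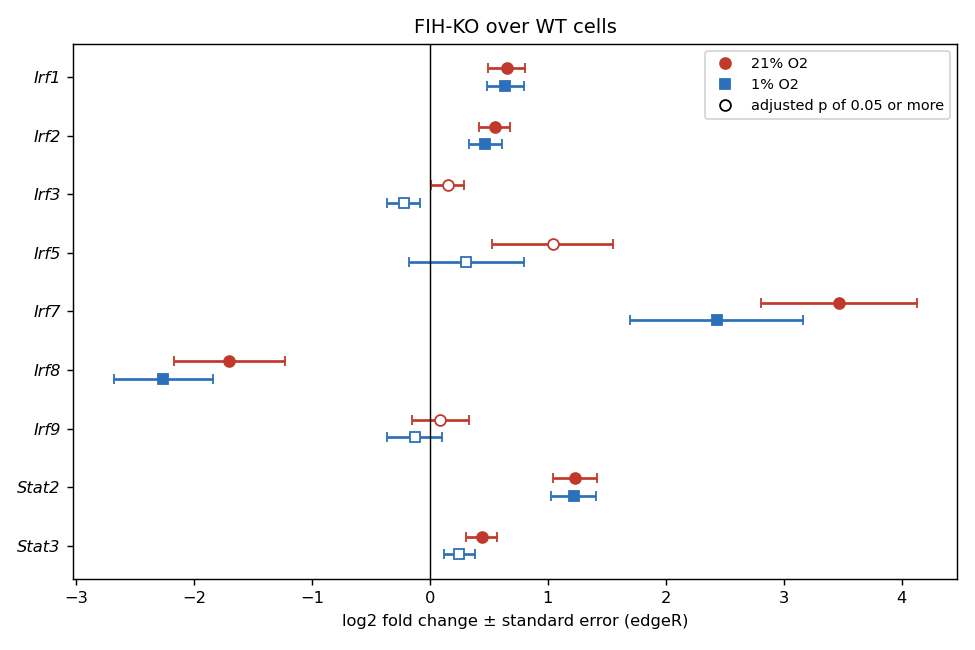
The log2 fold change of FIH-KO over WT for each of the 9 genes in normoxia (circles) and hypoxia (squares), with bars of 1 standard error and open symbols where the adjusted p was 0.05 or more. Irf7 stands farthest to the right, at 3.47 and 2.43, and Irf8 is the one gene called on the left, at -1.70 and -2.26.

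Stat2, the partner of IRF9 in ISGF3, was higher in FIH-KO cells in either condition, by a fold of 2.34 in normoxia and 2.33 in hypoxia. In normoxia it stood at 14.6 and 15.3 CPM in WT and 41.8 and 28.5 in FIH-KO libraries. In hypoxia it stood at 15.1 and 16.4 in WT and 32.8 and 40.3 in FIH-KO libraries. No FIH-KO library came near a WT library, although the FIH-KO libraries spread more widely. These correspond to log2 fold changes of 1.23 ± 0.19 (adjusted p = 6.6e-04, edgeR) and 1.22 ± 0.19 (adjusted p = 7.4e-04, edgeR). Stat2 kept its call under all 15 alternatives run for each comparison, including those that left out 1 library.

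Irf9, the DNA-binding member of ISGF3, did not pass the test between genotypes. It had 8.92 and 6.10 CPM in WT and 7.61 and 8.39 in FIH-KO libraries in normoxia. Under hypoxia WT libraries had 10.6 and 13.9 and FIH-KO libraries 10.4 and 12.1. The groups overlapped in both conditions. The log2 fold changes were 0.09 ± 0.24 (adjusted p = 0.80, edgeR) and -0.13 ± 0.23 (adjusted p = 0.72, edgeR). Irf9 shares 282 bases with Rnf31 on the same strand, so reads there may belong to either gene.

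The ratio of Stat2 to Irf9, on levels per kilobase, was 1.01 and 1.55 in WT normoxia and 3.39 and 2.10 in FIH-KO normoxia. In hypoxia this ratio was 0.875 and 0.727 in WT and 1.96 and 2.06 in FIH-KO libraries. Thus Stat2 RNA exceeded Irf9 RNA in every FIH-KO library, and was below it in both WT hypoxia libraries. These ratios describe RNA and were not tested.

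Irf7, the factor that amplifies type I interferon production once it has been induced, had the largest fold difference of the 9 genes, from a level close to 0. Its reads were 1 and 5 in WT and 49 and 24 in FIH-KO libraries in normoxia. In hypoxia they were 4 and 2 in WT and 12 and 20 in FIH-KO libraries. The 4 FIH-KO libraries were all above the 4 WT libraries, of which 2 were under 3 reads. Irf7 passed the filter on low counts only through FIH-KO libraries, the genotype in which it was higher. The ratio of summed counts per library size was 11.4 in normoxia (exact 95% interval of 4.99 to 32.0) and 5.52 in hypoxia (2.28 to 16.2), intervals that cover counting error only. The fitted log2 fold changes were 3.47 ± 0.66 (adjusted p = 0.0025, edgeR) and 2.43 ± 0.73 (adjusted p = 0.027, edgeR). Irf7 was called in normoxia under all 14 alternatives that could be fitted, but the size of the log2 fold change moved with single libraries. It was 2.78 without WT normoxia replicate 1, 4.87 without WT normoxia replicate 2 and 2.80 without FIH-KO normoxia replicate 1. In hypoxia its call was lost without WT hypoxia replicate 1 (2.87, adjusted p = 0.099, edgeR), without WT hypoxia replicate 2 (2.16, adjusted p = 0.14, edgeR) and without FIH-KO hypoxia replicate 2 (1.99, adjusted p = 0.14, edgeR).

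Irf8, a factor of myeloid and B cell development, was the one gene of the 9 that was lower in FIH-KO cells. Its reads were 18 and 22 in WT and 5 and 8 in FIH-KO libraries in normoxia. Hypoxic WT libraries had 46 and 39 reads, and hypoxic FIH-KO libraries 11 and 6. Every FIH-KO library was below every WT library. Irf8 passed the filter on low counts only through WT libraries, the genotype in which it was higher. The ratio of summed counts was 0.304 in normoxia (exact 95% interval of 0.149 to 0.581) and 0.207 in hypoxia (0.115 to 0.352). The log2 fold changes were -1.70 ± 0.47 (adjusted p = 0.018, edgeR) and -2.26 ± 0.42 (adjusted p = 0.0020, edgeR). The hypoxia call held in all 14 alternatives that could be fitted. That in normoxia was lost with DESeq2 (-1.71, adjusted p = 0.069) and without WT normoxia replicate 1 (-1.81, adjusted p = 0.070, edgeR), WT normoxia replicate 2 (-1.63, adjusted p = 0.096, edgeR) or FIH-KO normoxia replicate 1 (-1.46, adjusted p = 0.13, edgeR).
The leukocyte marker list was read beside Irf8. Its summed level was 4.43 and 5.62 CPM in WT normoxia, 10.4 and 10.6 in FIH-KO normoxia, 13.3 and 12.5 in WT hypoxia and 13.7 and 9.36 in FIH-KO hypoxia. In each library 4 to 8 of the 12 markers were at 0. Flt3, a receptor of hematopoietic progenitors, fell in FIH-KO cells with a log2 fold change of -3.04 ± 0.61 in normoxia and -3.22 ± 0.49 in hypoxia (adjusted p = 0.0033 and 6.9e-04, edgeR). Lyz2, the lysozyme of myeloid cells, rose by 3.74 ± 0.54 and 3.75 ± 0.61 on the log2 scale (adjusted p = 4.4e-04 and 0.0010, edgeR). Flt3 passed the filter only through WT libraries and Lyz2 only through FIH-KO libraries. The part of other cells in the Irf8 difference was not tested, and the pan-leukocyte marker Ptprc had at most 3 reads per library.

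Irf1, an activator of antigen presentation genes, and Irf2, which competes with it for the same sites, were both moderately higher in FIH-KO cells. Irf1 had 19.1 and 21.2 CPM in WT and 34.7 and 28.6 in FIH-KO libraries in normoxia, with hypoxic values of 21.8 and 19.0 (WT) and 34.8 and 28.9 (FIH-KO). Irf2 had 33.4 and 35.9 in WT and 55.7 and 46.0 in FIH-KO libraries in normoxia, with hypoxic values of 27.5 and 28.7 (WT) and 40.7 and 37.1 (FIH-KO). The genotypes did not overlap within a condition for either gene. On the log2 scale Irf1 differed by 0.65 ± 0.16 in normoxia (adjusted p = 0.010, edgeR) and 0.64 ± 0.16 in hypoxia (adjusted p = 0.011, edgeR). Irf2 differed by 0.55 ± 0.13 (adjusted p = 0.0097, edgeR) and 0.47 ± 0.14 (adjusted p = 0.023, edgeR). The ratio of Irf1 to Irf2 per kilobase lay between 0.673 and 0.734 in the 4 normoxic libraries and between 0.777 and 1.00 in the 4 hypoxic ones. On the opposite strand, Irf1 overlaps Gm12216 over 8389 bases, and Irf2 overlaps Gm16675 over 468 bases. Gm16675 had log2 fold changes of FIH-KO over WT of 1.42 in normoxia and 0.55 in hypoxia. The part of these overlaps in the counts was not tested.
In normoxia the calls of both genes were lost, with adjusted p between 0.051 and 0.13 (edgeR), without FIH-KO normoxia replicate 1 (0.48 for Irf1 and 0.39 for Irf2), WT normoxia replicate 1 (0.55 and 0.47) or WT normoxia replicate 2 (0.70 and 0.58). In hypoxia, with adjusted p between 0.058 and 0.099, both were lost without WT hypoxia replicate 2 (0.55 and 0.50), and that of Irf2 also without WT hypoxia replicate 1 (0.47) or FIH-KO hypoxia replicate 1 (0.44). Leaving out a library lowers the number that the test rests on, and the direction was the same each time.

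Stat3, the STAT of IL-6 family cytokines, had 66.0 and 66.8 CPM in WT and 101 and 79.2 in FIH-KO libraries in normoxia. In hypoxia it had 69.9 and 75.1 in WT and 91.9 and 80.9 in FIH-KO libraries. The genotypes did not overlap in either condition, but the test was passed in normoxia (log2 fold change of 0.44 ± 0.13, adjusted p = 0.026, edgeR) and not in hypoxia (0.25 ± 0.13, adjusted p = 0.18, edgeR). The normoxia call was lost without FIH-KO normoxia replicate 1 (0.23, adjusted p = 0.30, edgeR), WT normoxia replicate 1 (0.40, adjusted p = 0.18, edgeR) or WT normoxia replicate 2 (0.42, adjusted p = 0.14, edgeR). The 3′ end of Stat3 overlaps Stat5a on the opposite strand over 142 bases, and Stat5a was itself higher in FIH-KO cells (0.66 ± 0.20 in normoxia, adjusted p = 0.029, edgeR).

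Irf3, the constitutively present factor that is activated downstream of nucleic acid sensors, and Irf5, which acts downstream of Toll-like receptors, did not pass the test in either condition. Irf3 had 24.5 and 27.9 CPM in WT and 28.0 and 30.1 in FIH-KO libraries in normoxia. Under hypoxia it had 31.7 and 31.8 in WT and 28.8 and 25.7 in FIH-KO libraries. FIH-KO libraries thus lay above WT in normoxia and below WT in hypoxia, with log2 fold changes of 0.15 ± 0.14 (adjusted p = 0.45, edgeR) and -0.22 ± 0.14 (adjusted p = 0.25, edgeR). Irf5 had 10 and 22 reads in WT and 41 and 29 in FIH-KO libraries in normoxia, which did not overlap. Under hypoxia the reads were 25 and 23 in WT and, on either side of these, 43 and 15 in FIH-KO libraries. Its log2 fold changes were 1.04 ± 0.51 (adjusted p = 0.15, edgeR) and 0.31 ± 0.49 (adjusted p = 0.68, edgeR). With no filter on low counts Irf5 was called in normoxia (1.06, adjusted p = 0.045, edgeR). Both genes overlap a neighbor on the opposite strand, Bcl2l12 for Irf3 and Tnpo3 for Irf5, and the strand setting of the counting is not given in the sources used here.

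Hypoxia was compared with normoxia within each genotype. In WT cells 2 of the 9 genes rose, Irf8 and Irf9, and none fell, beside 32.4% of all genes called, 16.9% higher and 15.5% lower. In FIH-KO cells none of the 9 was called by edgeR and none by DESeq2. The background over all genes tested was 16.8% called, 8.84% higher and 8.0% lower. At an unadjusted p under 0.05 there was 1 of the 9, Irf2, beside 31.0% of all genes. The median log2 fold change of the 9 genes was 0.13 in WT and -0.06 in FIH-KO cells, against -0.001 and -0.027 over all genes tested. These comparisons use the same libraries as those between genotypes.

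**Figure D4:**
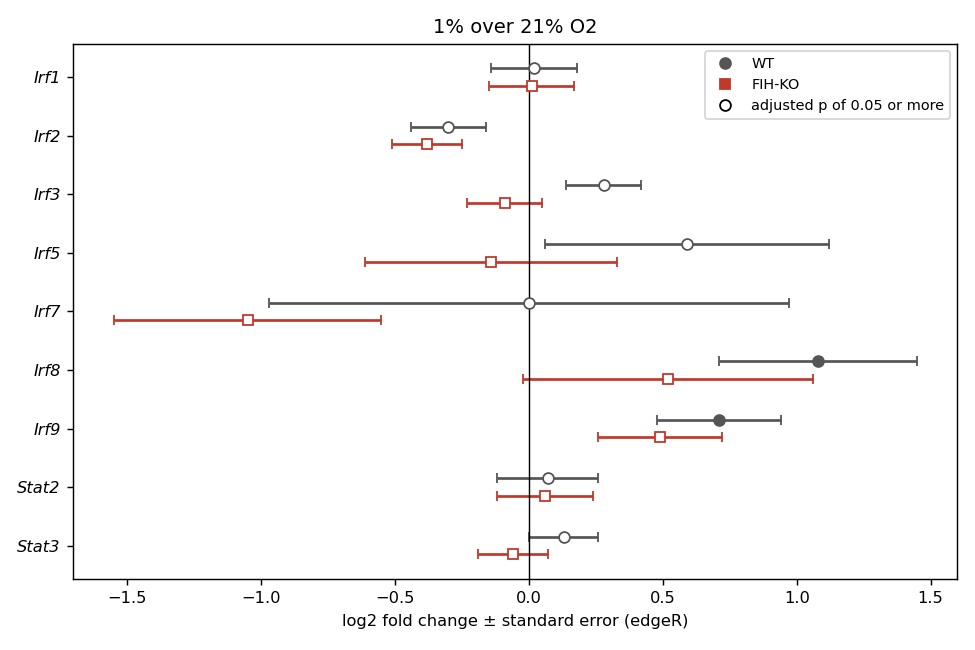
The log2 fold change of hypoxia over normoxia for each of the 9 genes in WT (circles) and FIH-KO cells (squares), with bars of 1 standard error and open symbols where the adjusted p was 0.05 or more. The filled symbols are Irf8, at 1.08, and Irf9, at 0.71, both in WT cells.

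Irf9 had 8.92 and 6.10 CPM in normoxic and 10.6 and 13.9 in hypoxic WT libraries, without overlap (log2 fold change of 0.71 ± 0.23, adjusted p = 0.035, edgeR). In FIH-KO cells it had 7.61 and 8.39 in normoxia and 10.4 and 12.1 in hypoxia, also without overlap, and did not pass the test (0.49 ± 0.23, adjusted p = 0.17, edgeR). Irf8 went from 18 and 22 reads to 46 and 39 in WT cells (1.08 ± 0.37, adjusted p = 0.041, edgeR) and from 5 and 8 to 11 and 6 in FIH-KO cells (0.52 ± 0.54, adjusted p = 0.56, edgeR). Of the 4 leukocyte markers tested, 2 rose in the same WT comparison, where the summed list of 12 went from 4.43 and 5.62 to 13.3 and 12.5 CPM. Flt3 rose (1.29 ± 0.40, adjusted p = 0.028, edgeR), as did Csf1r, the receptor for macrophage colony-stimulating factor, from 0 and 2 reads to 53 and 22 (adjusted p = 0.0015, edgeR). Csf1r passed the filter on low counts only through hypoxic libraries, the oxygen condition in which it was higher. Cd68 (0.94 ± 0.36, adjusted p = 0.063, edgeR) and Lyz2 (-0.69 ± 0.83, adjusted p = 0.56, edgeR) did not pass. Their part in the Irf8 rise was not tested. With DESeq2 the WT call of Irf8 was lost (1.07, adjusted p = 0.20). Both WT calls were lost without FIH-KO normoxia replicate 1 or without FIH-KO normoxia replicate 2 (1.04 for Irf8 and 0.67 for Irf9 each time), without WT hypoxia replicate 2 (1.06 and 0.50) and without WT normoxia replicate 2 (1.14 and 0.42). That of Irf8 was also lost without WT hypoxia replicate 1 (1.07) or WT normoxia replicate 1 (0.96).

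Every hypoxic library was below every normoxic library of the same genotype for Irf2, which missed the threshold, with log2 fold changes of -0.30 ± 0.14 in WT (adjusted p = 0.11, edgeR) and -0.38 ± 0.13 in FIH-KO cells (adjusted p = 0.071, edgeR). Irf1 and Stat2 were close to 0 in both genotypes, at 0.02 ± 0.16 and 0.07 ± 0.19 in WT and 0.01 ± 0.16 and 0.06 ± 0.18 in FIH-KO cells. In WT cells Stat3 stood at 0.13 ± 0.13 and Irf3 at 0.28 ± 0.14. Without FIH they stood at -0.06 ± 0.13 and -0.09 ± 0.14. Irf7 had few reads in WT cells in either condition (-0.00 ± 0.97). In FIH-KO cells it had 49 and 24 reads in normoxia and 12 and 20 in hypoxia, which did not overlap and did not pass the test (-1.05 ± 0.50, adjusted p = 0.18, edgeR). Irf5 stood at 0.59 ± 0.53 in WT and at -0.14 ± 0.47 without FIH.

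Whether the difference between FIH-KO and WT cells itself changed with oxygen was tested as an interaction. None of the 9 genes was called, beside 0.0% of all genes. Over all genes, edgeR called 0, with 925 at an unadjusted p under 0.05, and DESeq2 called 37, none of them among the 9. The interaction was -0.01 ± 0.23 for Irf1 and -0.01 ± 0.27 for Stat2 on the log2 scale, the most even of the 9 genes. It was -0.37 ± 0.19 for Irf3 (adjusted p = 0.78, edgeR), -1.05 ± 1.14 for Irf7 and -0.56 ± 0.67 for Irf8. The call of Stat3 in normoxia alone is therefore not shown to differ from hypoxia (-0.19 ± 0.19, adjusted p = 0.88, edgeR).

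The patterns of the 9 genes over the 8 libraries were compared by Pearson's r on log2 CPM, as a description over libraries that share genotype and depth. Irf7 and Stat2 had an r of 0.929, Irf1 and Stat2 0.926, Irf1 and Irf7 0.903 and Irf1 and Stat3 0.901. Irf8 ran against them, with an r of -0.903 to Irf2, -0.888 to Stat2 and -0.877 to Irf7. Irf9 and Irf3 followed neither, with r between -0.504 and 0.560 to all other members.
Among all genes tested, the closest patterns to Stat2 were those of Ctnnd1, which encodes p120-catenin, and Tppp, both with an r of 0.992. Closest to Irf1 were Tspan32 (0.996) and Fntb (0.995), to Irf2 Eri3 and Abl1 (both 0.994), to Irf7 Gpr173 and Pcdhgb7 (both 0.984) and to Irf8 Flt3 (0.993) and Galnt3 (0.990). The 6 tested genes nearest to Stat2 on its chromosome had a median log2 fold change of FIH-KO over WT of -0.18 in normoxia and 0.04 in hypoxia. This median was 0.32 and 0.15 around Irf7, 0.10 and 0.07 around Irf8 and 0.40 and 0.27 around Stat3.

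Irf4 had 0 to 2 reads per library and Stat4 0 to 1, and neither could be tested. Stat5a was higher in FIH-KO cells in normoxia (above) and in hypoxia (0.80 ± 0.21, adjusted p = 0.015, edgeR), whereas Stat5b (-0.09 and -0.08) and Stat6 (-0.10 and -0.09) did not pass the test in either. Of 3 IRF2-binding cofactors tested, 1 (33.3%) was called in normoxia, as higher, beside 28.2% of all genes called and 15.2% higher. The called gene was Irf2bpl (0.55 ± 0.17, adjusted p = 0.028, edgeR), which was not called in hypoxia (0.29 ± 0.17, adjusted p = 0.22, edgeR). Irf2bp2 rose with hypoxia in WT cells (0.82 ± 0.18, adjusted p = 0.0042, edgeR) and in FIH-KO cells as well (0.58 ± 0.18, adjusted p = 0.041, edgeR).

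The lists that follow are read against 28.2% of all genes called between genotypes in normoxia (15.2% higher) and 28.0% in hypoxia (14.1% higher). Upstream of the factors, the interferon genes listed had almost no reads. The kinase genes and the listed receptor genes, except Ifnlr1, were expressed. The 9 interferon genes listed, a part of the family, had 1 read in the 8 libraries together, so none was tested. A count of 0 in a library allows a level of up to 0.165 to 0.207 CPM (3 counts). Of 5 interferon receptor chains tested, 2 were higher in FIH-KO cells in both conditions. They were Ifngr1, the ligand-binding chain for interferon-gamma (0.91 ± 0.14 and 0.79 ± 0.14, adjusted p = 8.1e-04 and 0.0019, edgeR), and Il10rb, shared by the interferon-lambda and IL-10 receptors (0.95 ± 0.23 and 0.97 ± 0.23, adjusted p = 0.0092 and 0.0084, edgeR). Ifnar1 and Ifnar2, the chains of the type I receptor, had log2 fold changes of 0.25 and 0.33 in normoxia and 0.30 and 0.34 in hypoxia and did not pass. Neither did Ifngr2, the other chain for interferon-gamma, at -0.16 in normoxia and -0.22 in hypoxia. Ifnlr1, the other chain for interferon-lambda, had no read in any library and was not tested.
Jak1, the kinase common to the interferon and IL-6 receptors, had 288 and 307 CPM in WT and 613 and 476 in FIH-KO libraries in normoxia. In hypoxia it had 266 and 262 in WT and 510 and 437 in FIH-KO libraries. The genotypes did not overlap, with a difference of 0.87 ± 0.14 in normoxia on the log2 scale (adjusted p = 7.0e-04, edgeR) and 0.84 ± 0.14 in hypoxia (adjusted p = 9.4e-04, edgeR). Jak2 was lower in FIH-KO cells in hypoxia (-0.44 ± 0.12, adjusted p = 0.017, edgeR) and not called in normoxia (-0.16 ± 0.12, adjusted p = 0.34, edgeR), and Tyk2 was called in neither. Jak3, the kinase of common gamma chain receptors, was higher in FIH-KO cells in normoxia (0.52 ± 0.17, adjusted p = 0.036, edgeR) and, at the threshold, in hypoxia (0.47 ± 0.16). It also rose with hypoxia in WT (0.61 ± 0.17, adjusted p = 0.016, edgeR) and FIH-KO cells (0.56 ± 0.16, adjusted p = 0.035, edgeR).
Of 16 sensors and adaptors tested that lead to IRF3, IRF5 and IRF7, 4 (25.0%) were higher in normoxia and 6 (37.5%) in hypoxia, and none was lower. In normoxia the share called in either direction was below that over all genes and the share called higher above it. Ikbke, an IRF3 and IRF7 kinase, stood at 1.02 ± 0.18 and 0.61 ± 0.18, the adaptor Mavs at 0.54 ± 0.13 and 0.45 ± 0.13, and Tlr4, the endotoxin receptor, at 0.54 ± 0.14 and 0.48 ± 0.14, all called.
Of 12 negative regulators tested, 2 were higher and 1 lower in normoxia (25.0% called, below the share over all genes) and 5 were higher in hypoxia (41.7%). Usp18, counted as higher in hypoxia, passed the filter on low counts only through FIH-KO libraries. Socs3, the feedback inhibitor induced by STAT3, was higher by 0.92 ± 0.16 and 0.68 ± 0.16 on the log2 scale. Ptpn6, a phosphatase that acts on JAKs, was higher by 0.61 ± 0.17 and 0.75 ± 0.18.

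**Figure D5:**
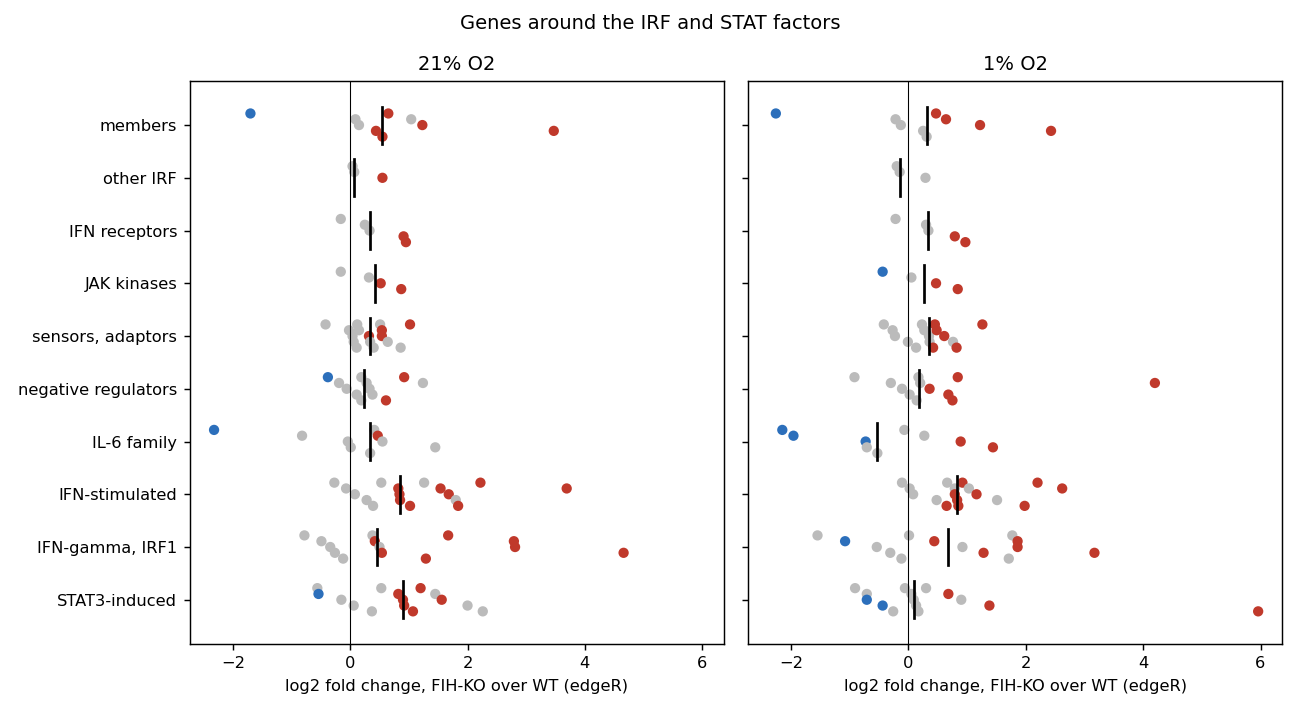
The log2 fold change of FIH-KO over WT for every tested gene of each list shown, in normoxia (left) and hypoxia (right); red points were called higher, blue lower and gray not called, and black bars are list medians. The interferon-stimulated genes have medians of 0.85 and 0.83, against 0.55 and 0.31 for the 9 IRF and STAT genes.

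Genes known to respond to these factors were counted by list. Of 17 interferon-stimulated genes tested (28 listed), 9 were higher in FIH-KO cells in each condition, 8 were not called and none was lower. Rtp4, counted as higher in normoxia, passed the filter on low counts only through FIH-KO libraries. The same holds for Ifit3, Oas1b and Xaf1, which were not called. The counts and medians of this list include these genes and so lean toward higher. The listed genes that were not tested had at most 8 reads in any library of either genotype. Oas3, an oligoadenylate synthetase, and the ADP-ribosyltransferases Parp14 and Parp9 had the smallest p in normoxia, with log2 fold changes of 3.69 ± 0.49, 2.22 ± 0.36 and 1.02 ± 0.22. In hypoxia these were 2.20 ± 0.40, 2.62 ± 0.39 and 0.92 ± 0.21, all called. Of 14 tested genes of the interferon-gamma and IRF1 response, 7 were higher in normoxia, and in hypoxia 5 were higher and 1 lower, with medians of 0.46 and 0.68. Tapbp, the peptide-loading chaperone tapasin, was higher by 1.29 ± 0.12 and 1.28 ± 0.12 on the log2 scale. Psmb8, an immunoproteasome subunit, had 2 reads in each WT library in normoxia, compared with 61 and 53 without FIH. Casp1, the inflammatory caspase, had 4 and 7 against 44 and 40. Psmb8, Casp1 and Psmb9, all counted as higher in normoxia, passed the filter on low counts only through FIH-KO libraries. Cxcl10, which was not called between genotypes, passed it only through WT libraries.
Of 15 STAT3-induced genes tested, 6 were higher and 1 lower in normoxia, and 3 were higher and 2 lower in hypoxia, with medians of 0.90 and 0.09. Lcn2, counted as higher in hypoxia, passed the filter on low counts only through the FIH-KO hypoxia libraries. Il4ra, the interleukin-4 receptor chain, was higher in both (1.07 ± 0.19 and 1.38 ± 0.20). Vegfa, also a HIF target, was higher in normoxia (1.20 ± 0.16) and stood at 0.09 ± 0.15 in hypoxia, and the survival gene Mcl1 was lower in both (-0.54 ± 0.11 and -0.44 ± 0.11). Of 9 tested ligands and receptors of the IL-6 family, 1 was higher and 1 lower in normoxia (22.2% called, below the share over all genes), and 2 were higher and 3 lower in hypoxia (55.6%). Il11, a ligand of the gp130 receptor that activates STAT3, fell from 108 and 74 reads in WT to 17 and 22 in FIH-KO libraries in normoxia and from 606 and 422 to 92 and 129 in hypoxia. Il6st, the gp130 receptor itself, was higher in normoxia (0.47 ± 0.10, adjusted p = 0.0058, edgeR) and stood at -0.07 ± 0.10 in hypoxia.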

How the data were processed

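RNA from 8 LLC samples was sequenced as stranded mRNA libraries. Per the study's methods, the authors used STAR for alignment to GRCm39 and HTSeq for counting. The labels' processing notes also name GRCm38 and DESeq2. The deposited values are raw counts per gene. The annotation release, strand setting and treatment of reads with several positions are not given in the sources used here. Symbols were taken from the table, and 98.0% of identifiers were found in GENCODE M39, which gave positions and canonical transcript lengths.

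Counts were tested with edgeR 4.0.16 (quasi-likelihood, filterByExpr, TMM, 1 mean per group, all 8 libraries, adjustment over 13933 genes, threshold of 0.05), after a test on simulated data. The common biological coefficient of variation was 11.7%. DESeq2 1.42.0, other scalings and filters, a fit with the replicate number as a block, the 4 libraries of each comparison alone and each library left out were alternatives. The counts rest on the table as deposited, and any read shared by overlapping genes may have been dropped or split. Intervals cover counting error only.

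The 9 genes, the gene lists and the naming rule were chosen with earlier results of these data known. Named genes were Hif1an, the members, other IRF and STAT genes, receptors, kinases, up to 3 per list and direction with the smallest adjusted p in normoxia, and the 2 genes of most similar pattern for each member called in both comparisons. Leukocyte and epithelial markers named as absent, and Irf2bp2, were named as defining or family genes. Some genes were named outside this rule only to tell how they passed the filter on low counts. Some items are not reported here.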

Additional observations from a re-analysis of the deposited data

How the results depend on the processing

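Of 654 alternative values for the 9 genes, 578 kept their direction and side of the threshold, 31 lost a call, 1 gained it and 44 changed sign. All 44 were values not called, and none of 190 alternatives for called values changed sign. The replicate numbers did not pair the libraries (correlations of same-numbered deviations from -0.010 to 0.193), and the fit with the replicate block gave 6 called genes in normoxia, 5 in hypoxia and 2 for hypoxia in WT cells, as without it. Leaving out a library reduces the degrees of freedom, and a lone sample is then assumed to vary like the other groups. The few reads of Irf5, Irf7 and Irf8 limit their precision.

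Counts of called genes varied. FIH-KO against WT in normoxia gave 6, and 5 with DESeq2 (without Irf8), 7 with no filter (with Irf5) and 4 with at least 10 counts in every library, where Irf7 and Irf8 were not tested. FIH-KO against WT in hypoxia gave 3 with that filter. Hypoxia against normoxia in WT gave 1 with DESeq2, for which the cause was not tested, and 1 with that filter. With 1 library left out, the count was 2 to 6 for FIH-KO against WT in normoxia, 2 to 5 in hypoxia, 0 to 2 for hypoxia in WT cells, and 0 for hypoxia in FIH-KO cells and for the interaction. The count in normoxia was 2 without FIH-KO normoxia replicate 1, WT normoxia replicate 1 or WT normoxia replicate 2. In hypoxia it was 3 without WT hypoxia replicate 1 and 2 without WT hypoxia replicate 2.

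Signs changed where values lay near 0 or counts were low. Irf1 for hypoxia in WT cells was -0.003 with upper-quartile factors. The interaction of Irf1 was 0.01 with DESeq2, 0.02 with upper-quartile factors, 0.01 with no filter and 0.02 with at least 10 counts. That of Stat2 was 0.01, 0.02, 0.01 and 0.02 under the same settings and 0.0009 with RLE size factors. With 1 library left out, FIH-KO against WT was -0.18 to 0.36 for Irf9 in normoxia and, in hypoxia, -0.28 to 0.08 for Irf9 and -0.56 to 0.86 for Irf5. Hypoxia in WT cells was -0.13 to 0.11 for Irf1, -0.71 to 1.38 for Irf7 and -0.01 to 0.09 for Stat2. Hypoxia in FIH-KO cells was -0.11 to 0.17 for Irf1, -1.02 to 0.40 for Irf5, -0.17 to 0.38 for Stat2 and -0.20 to 0.14 for Stat3. The interaction was -0.10 to 0.19 for Irf1, -0.15 to 0.12 for Irf2, -0.45 to 0.09 for Irf9, -0.20 to 0.35 for Stat2 and -0.29 to 0.06 for Stat3.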
